A study of Mus musculus with 76 samples.

Results

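Kcnc1, Kcnc2, Kcna1, Kcna2 and Kcnq3 encode pore-forming subunits of voltage-gated potassium channels that set spike width, firing rate and spike threshold. These 5 genes were taken by name from the 35825 gene symbols of the count table, as a view of how far the firing machinery had developed before parvalbumin appears. The data are Patch-seq libraries: a neuron is recorded with a glass pipette, its cytoplasm is then aspirated through that pipette, and its RNA is sequenced. The recordings made from the cells were not analysed here.

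All cells came from acute slices of untreated mouse pups at postnatal day 4, housed with their parents, and lay in the pyramidal layer of dorsal CA1. All groups carried Nkx2.1-Cre and the Ai14 tdTomato reporter, so the red cells descend from the medial ganglionic eminence (MGE), the embryonic source of parvalbumin and somatostatin interneurons, and the label alone does not separate those types. The groups differ in gephyrin, the scaffold of inhibitory synapses, which was wild type (WT) or had the serines 268 and 270 replaced by alanine (GPHN S268/270A, called Mut), and in sex. Of 76 labelled cells the authors kept 67. The 62 without a contamination mark are compared here, of which 9 came from WT females, 19 from WT males, 19 from Mut females and 15 from Mut males. Another 5 WT cells with that mark, and 9 cells dropped by the authors' filter, are described apart. No animal or litter is named, so each group was summed into 1 library and cells were not treated as replicates. A cell held 2946456 to 12070780 counts with a median of 6353179. The sums held 61543250 counts in WT females, 120682304 in WT males, 117701977 in Mut females and 112199210 in Mut males. CPM, counts scaled to the library total, is used for 1 gene across cells, and TPM, which is also scaled by transcript length, for levels of different genes. A cell is said to carry a gene at 10 CPM or more.

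Channels of the Kv3 family, Kv3.1 from Kcnc1 and Kv3.2 from Kcnc2, open only at depolarised voltages and close fast, which keeps spikes narrow and lets mature parvalbumin basket cells fire at high rates. Kv1.1 from Kcna1 and Kv1.2 from Kcna2 open near threshold, sit mostly on the axon and co-assemble with each other and with beta subunits. Kv7.3 from Kcnq3 contributes to the slow M-current, which muscarinic receptors suppress. The Kv3 channels of parvalbumin cells are known to build up after birth together with parvalbumin itself.

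The label of the cells was checked against their markers. Lhx6, a transcription factor of MGE interneurons, and Gad1, a GABA-synthesising enzyme, were both carried by 55 of 62 cells. Pvalb, which encodes parvalbumin, was carried by 1 cell, Mut female cell 3, at 82.2 CPM. That cell had 23.9 CPM of Kcnc2 and 0 CPM of Kcnc1.

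Both Kv3 genes make more than 1 annotated transcript, and the stretches in which those transcripts part are printed here because the transcript assigned to a gene differed between cells. Kcnc1 lies on the plus strand at chr7:46396497-46438704 and Kcnc2 on the plus strand at chr10:112271121-112467024 (GRCm38, GENCODE M21). In each of the next lines the 30 lower-case bases are the end of a shared coding exon, and the capitals are the coding bases that follow in that transcript. For Kcnc1 the shared end is chr7:46428250-46428279, after which Kcnc1-201 reads on into the intron of Kcnc1-203 (chr7:46428280-46428311, stop codon included) while Kcnc1-203 is spliced to the next exon (chr7:46435158-46435217). For Kcnc2 the shared end is chr10:112456506-112456535, after which Kcnc2-203 holds an exon of its own (chr10:112456929-112457032) that Kcnc2-201 skips (chr10:112458490-112458549).
Kcnc1-201: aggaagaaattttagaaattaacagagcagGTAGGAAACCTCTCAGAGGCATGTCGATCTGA
Kcnc1-203: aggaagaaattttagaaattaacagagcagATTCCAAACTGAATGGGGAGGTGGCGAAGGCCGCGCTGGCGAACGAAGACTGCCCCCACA
Kcnc2-203: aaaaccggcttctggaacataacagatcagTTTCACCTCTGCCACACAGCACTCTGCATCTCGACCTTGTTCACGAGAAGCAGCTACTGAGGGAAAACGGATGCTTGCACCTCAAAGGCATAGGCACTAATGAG
Kcnc2-201: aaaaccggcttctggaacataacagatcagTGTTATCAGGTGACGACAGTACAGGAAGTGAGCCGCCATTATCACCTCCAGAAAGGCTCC
Kcnc1-201 has 511 codons, as the short Kv3.1a protein, and Kcnc1-203 has 585 codons, as the long Kv3.1b protein, which differ only in the end of the intracellular C-terminus. Kcnc2-201 codes for a full subunit of 642 codons, whereas the annotated Kcnc2-203 begins inside a coding exon and holds only 138 codons.

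The Kv3 genes and Kcnq3 were each carried by a minority of cells, Kcna2 by few and Kcna1 by 2, and other cells held lower levels. At least 1 CPM was reached by 47 of 62 cells for Kcnq3, 45 for Kcnc1 and 42 for Kcnc2, and at least 50 CPM by 17, 17 and 20. Kcnc2 was carried by 27 of 62 cells, Kcnc1 by 26, Kcnq3 by 26, Kcna2 by 9 and Kcna1 by 2, where the median over the 16435 genes tested is 10 cells. Per length, the median among carrying cells was 35.1 TPM for Kcnc2, 30.6 TPM for Kcnc1, 19.1 TPM for Kcna2 and 6.75 TPM for Kcnq3. The 2 Kcna1 cells held 154 and 17.3 TPM. The ranges of the carrying cells overlap for every pair of the 5 genes, so no order of levels among them exceeds the spread between cells. Kcnq3 was the lowest by its median, with 1.34 to 37.1 TPM against 4.02 to 248 TPM for Kcnc2. The limit of 10 CPM is not scaled by length, so a longer transcript passes it at a lower TPM. The lower ends of these ranges, the medians and the numbers of carrying cells therefore depend on length as well as level.

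**Figure D1:**
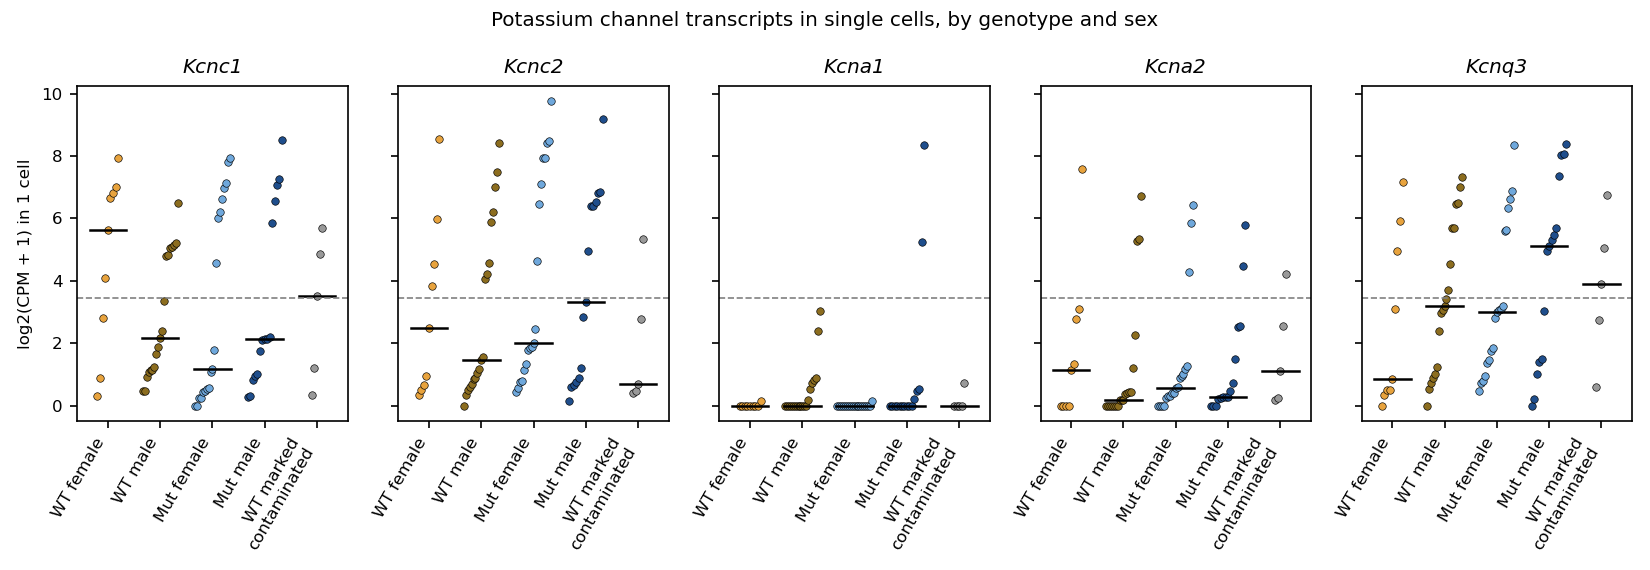
Level of each channel gene in every cell, as log2(CPM + 1), by genotype and sex, with the 5 WT cells marked as contaminated in grey. Black bars are medians and the dashed line marks 10 CPM. Cells stand on both sides of the line in each group for Kcnc1, Kcnc2 and Kcnq3, and only 2 Mut male cells stand above it for Kcna1.

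For the genotype comparison no gene of the whole table passed. The 4 sums were fitted with edgeR's quasi-likelihood test with sex as a term, and the call rule was a Benjamini-Hochberg adjusted p under 0.05. By that rule 0% of genes were higher and 0% lower in Mut, and the adjusted p of all 5 channel genes was 1. At an unadjusted p under 0.05 edgeR called 1.66% of genes higher and 1.84% lower, and none of the 5 was among them. DESeq2 called 2.23% higher and 1.82% lower after adjustment, again without any of the 5. The paragraphs on each gene therefore give values and their spread over cells, and call no gene higher or lower. On data simulated at a spread like that of these sums, the fit recovered 0% of 16-fold changes. The lack of a call thus does not show that a gene was unchanged.

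Kcnc1 was carried by the largest share of cells in WT females, and its sum was lowest in WT males. In WT females the 9 cells ran from 0.233 to 245 CPM with a median of 49.0, and 6 carried it. In WT males the 19 cells ran from 0.375 to 89.5 CPM with a median of 3.53, and 7 carried it. The highest WT male cell thus stayed under the highest cell of each other group, while the ranges overlapped throughout. Mut females ran from 0 to 243 CPM with a median of 1.26 and 8 of 19 cells carrying, and Mut males from 0.229 to 366 CPM with a median of 3.39 and 5 of 15 carrying.

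Summed by group, Kcnc1 reached 75.0 CPM in WT females (95% exact Poisson interval 72.6 to 77.3), 16.2 in WT males (15.5 to 16.9), 58.0 in Mut females (56.7 to 59.4) and 55.4 in Mut males (54.0 to 56.8). These intervals cover counting error only, since PCR reads are not independent molecules. The log2 ratio of Mut over WT, with a pseudocount of 1 CPM, was -0.36 in females and 1.71 in males, so the sexes pointed opposite ways, as they did for 49.6% of genes with a ratio in both. Leaving out each cell in turn kept both signs, with -0.76 to -0.12 in females and 1.13 to 2.18 in males. With the sexes fitted together, the fold change on the log2 scale was 0.70 with a standard error of 0.91 (edgeR, unadjusted p = 0.477, adjusted p = 1).

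Which Kcnc1 transcript was counted differed between cells. The ratio of the deposited count to the deposited TPM of a gene gives the mean length of the transcripts to which the authors' quantification assigned its reads. On genes with 1 annotated transcript that length fell within 5% of the annotated value in 99.0% of 17242 cell values. In 26 cells with 50 or more Kcnc1 counts the mean length ran from 1051 to 7617 nt, against 3156 nt for Kcnc1-203 (Kv3.1b) and 7760 nt for Kcnc1-201 (Kv3.1a). It lay within 5% of Kcnc1-203 in 11 cells and of Kcnc1-201 in 1 cell, Mut female cell 16, at 7617 nt. The other 14 cells fell outside both windows.

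The 3 cells whose Kcnc1 lay nearer Kcnc1-201 were Mut. The mean length exceeded the midpoint of both transcripts, 5458 nt, in 3 of 13 Mut cells and in 0 of 13 WT cells. A count of 0 of 13 allows a share of up to 23.1%, a limit that covers the counting of these cells only, since cells of 1 animal are not independent. The midpoint, like the length measure itself, was set after the data were seen. Just under it lay Mut male cell 4 (5400 nt) and WT male cell 11 (5099 nt). Kcnc1-203 was exceeded by over 5% in 5 of 13 WT and 5 of 13 Mut cells. The mean length fell short of it by over 5% in 1 of 13 WT and 4 of 13 Mut cells. In those cells the mean length does not give the share of Kcnc1-201. If only Kcnc1-201 and Kcnc1-203 were present, Kcnc1-201 would make up 96.9% in Mut female cell 16, 89.0% in Mut male cell 8 and 66.8% in Mut female cell 14. Their 2174, 2396 and 383 counts were spread over a longer transcript, so the 366 CPM of Mut male cell 8, the highest of all cells, came to 53.6 TPM. Mut male cell 7 showed the reverse, with 133 CPM but 234 TPM at a mean length of 1051 nt. That length is shorter than either coding transcript and lies above the 531 nt of the non-coding Kcnc1-202. The position of reads along the transcripts is not in the tables used here, and with no animal named these cells were not tested between genotypes.

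**Figure D2:**
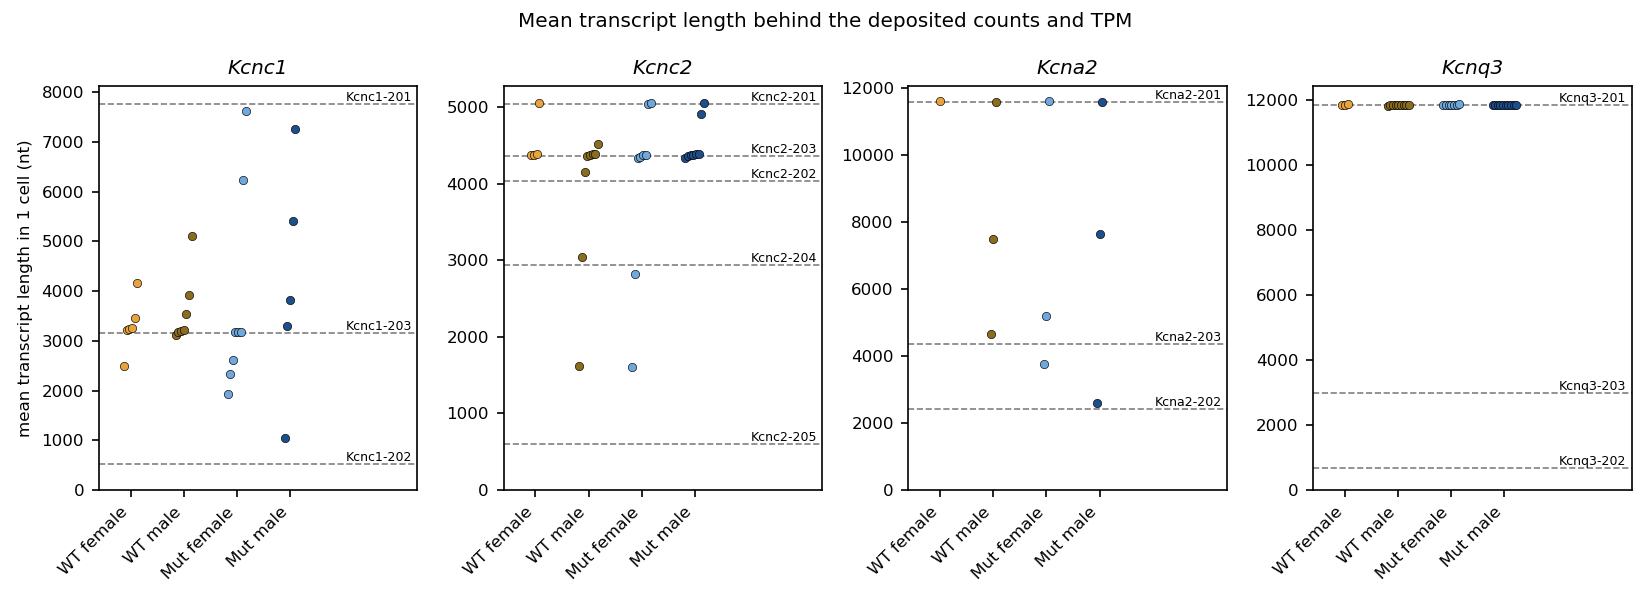
Mean transcript length behind the counts of 1 gene in 1 cell (nt), for compared cells with 50 or more counts, by group. Dashed lines are annotated transcripts. Kcnc1 cells gather at Kcnc1-203 (3156 nt) with 3 Mut cells above 5458 nt. Most Kcnc2 cells sit at Kcnc2-203 or Kcnc2-201, with a few at shorter lengths. Kcna2 cells spread, and all Kcnq3 cells sit at Kcnq3-201.

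Kcnc2 reached the highest level of the 5 genes in a single cell, at 248 TPM beside 234 TPM for Kcnc1. That Kcnc1 value came from Mut male cell 7, whose mean length of 1051 nt was shorter than either coding transcript. The sum of Kcnc2 was higher in Mut in both sexes. In WT females it ran from 0.267 to 373 CPM (median 4.58, 4 of 9 cells carrying) and in WT males from 0 to 342 CPM (median 1.77, 8 of 19). In Mut females the range was 0.351 to 863 CPM (median 3.05, 8 of 19) and in Mut males 0.124 to 580 CPM (median 8.98, 7 of 15). At 10 CPM it was thus carried by 12 of 28 WT and 15 of 34 Mut cells. At 50 CPM the counts were 7 and 13, and at 1 CPM 17 and 25. The median among carrying cells was 41.9 CPM in WT females, 65.8 in WT males, 244 in Mut females and 91.1 in Mut males.

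The sums of Kcnc2 were 46.0 CPM in WT females (44.2 to 47.8), 37.3 in WT males (36.2 to 38.3), 122 in Mut females (120 to 124) and 60.1 in Mut males (58.7 to 61.5). The log2 ratio was 1.39 in females and 0.67 in males, one of 25.3% of genes that were higher in both sexes by sign alone. WT female cell 3 alone held 73.9% of its group's sum, and without it the female ratio became 3.07. Without Mut female cell 11, at 863 CPM, the female ratio fell to 0.92, and without Mut male cell 18, at 580 CPM, the male ratio fell to 0.05. Mut male cell 18 also held 2412 CPM of microglial markers, with 6 of 12 at 10 CPM or more, and their part in its Kcnc2 value was not tested. With the sexes fitted together, the fold change on the log2 scale was 1.05 with a standard error of 0.64 (edgeR, unadjusted p = 0.165, adjusted p = 1), the smallest p of the 5 genes.

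In most cells the mean length of Kcnc2 lay at that of the annotated transcript with a short coding part. Of 28 cells with 50 or more counts, 18 had a mean length within 5% of Kcnc2-203 (4370 nt), 5 of the full-length Kcnc2-201 (5046 nt), and 2 of Kcnc2-204 (2944 nt). Another, at 4155 nt, was within 5% of both Kcnc2-202 (4033 nt) and Kcnc2-203, and the last 2 lay at 1612 and 1621 nt. The cells at Kcnc2-201 were 1 of 12 WT and 4 of 16 Mut cells. Most cells therefore sat near 1 annotated length, where 14 of the 26 Kcnc1 cells did not. These lengths lie closer together for Kcnc2 (2944, 4033, 4370 and 5046 nt) than for Kcnc1 (3156 and 7760 nt), which makes a match easier for Kcnc2. The part of this in the contrast was not tested. Kcnc2-203 and Kcnc2-201 share most of their last exon, which ends at base 112467024 in the former and at base 112466304 in the latter. Whether the reads covered the exon printed above for Kcnc2-203 cannot be read from the tables, so the split is the quantification's own.

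Kcna1 was close to absent. It lies on the minus strand at chr6:126640397-126646384. No female cell carried it: the 28 female cells held 2 counts in all, 1 in WT female cell 8 and 1 in Mut female cell 19, and 0 of 28 allows a share of up to 10.7%, again by the counting of these cells only. WT males held 98 counts over 19 cells, 50 of them in WT male cell 5 (7.12 CPM), and 0 of 19 cells carried it. Mut males held 2807 counts, of which 2502 were in cell 7 (328 CPM) and 297 in cell 4 (37.0 CPM), together 99.7% of the sum.

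The 2 cells that carried Kcna1 also carried Kcnc1, at 133 CPM in Mut male cell 7 and 154 CPM in cell 4, and neither carried Kcnc2. Cell 7 held 10062 CPM of Sst, the somatostatin gene, and cell 4 held next to none. Their Kcna1 mean lengths of 3153 and 3161 nt sat at the coding Kcna1-202 (3150 nt). The 50 counts of WT male cell 5 had a mean length of 771 nt, near the non-coding Kcna1-203 (745 nt). In males the log2 ratio was 3.87, and 1.15 without cell 7, while females give no ratio because both sums were under 3 counts. The fit over both sexes gave 2.67 with a standard error of 3.10 (edgeR, unadjusted p = 0.431, adjusted p = 1).

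Kcna2 was carried by 9 cells and summed to less in Mut, a direction that turned when 1 cell was left out. It lies on the plus strand at chr3:107101146-107115005. In WT females it ran from 0 to 191 CPM with a median of 1.21, and only cell 5 carried it. In WT males it ran from 0 to 104 CPM with a median of 0.144 and 3 cells carrying. Mut females ran from 0 to 84.5 CPM (median 0.474, 3 carrying) and Mut males from 0 to 53.9 CPM (median 0.214, 2 carrying), so the medians were near zero in every group.

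Kcna2 sums were 18.3 CPM in WT females (17.2 to 19.5), 8.38 in WT males (7.89 to 8.89), 8.09 in Mut females (7.60 to 8.61) and 7.03 in Mut males (6.55 to 7.53). WT female cell 5 held 90.5% of its group's sum and Mut male cell 4 held 54.0% of its own. The log2 ratio was -1.08 in females and -0.22 in males, one of 25.1% of genes lower in both sexes by sign. Without WT female cell 5 the female ratio turned to 1.61 and the fold change over both sexes from -0.71 (standard error 1.40, edgeR unadjusted p = 0.633, adjusted p = 1) to 0.89. The male ratio turned positive without WT male cell 8, 9 or 19, up to 0.41. Of 10 cells with 50 or more counts, 4 had a mean length at Kcna2-201 (11582 nt), which has the longest untranslated end, and the other 6 ran from 2582 to 7652 nt, between that and the 2430 nt of Kcna2-202. All 3 transcripts hold 499 codons.

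Kcnq3 summed to more in Mut males than in the other groups. It lies on the minus strand at chr15:65986387-66286642, where the antisense gene Gm27153 overlaps it. A library without strand information cannot tell reads of both genes apart where their exons overlap, and overlap of exons was not examined here. In WT females Kcnq3 ran from 0 to 143 CPM (median 0.814, 3 of 9 cells carrying), in WT males from 0 to 159 CPM (median 8.18, 8 of 19) and in Mut females from 0.382 to 327 CPM (median 6.96, 6 of 19). Mut males ran from 0 to 332 CPM with a median of 33.4, and 9 of 15 carried it. The median was highest in Mut males, while the ranges of the 4 groups overlapped in their lower part. Mut male cells 2, 3, 10 and 14 (163, 262, 269 and 332 CPM) and Mut female cell 8 (327 CPM) stood above the highest WT cell (159 CPM).

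Its sums were 32.1 CPM in WT females (30.6 to 33.7), 31.2 in WT males (30.3 to 32.2), 35.2 in Mut females (34.1 to 36.2) and 72.7 in Mut males (71.2 to 74.3). The log2 ratio was 0.13 in females and 1.19 in males, with 0.77 without Mut male cell 14. The female ratio changed sign in 7 of the refits that left out 1 cell, ran from -0.18 to 0.84, was -0.34 with the contaminated cell added and 1.08 with the removed cells added. With the sexes fitted together, the fold change on the log2 scale was 0.68 with a standard error of 0.80 (edgeR, unadjusted p = 0.441, adjusted p = 1). Every one of the 29 cells with 50 or more counts had a mean length at Kcnq3-201 (11824 nt), from 11823 to 11863 nt, so 1 count stands for fewer TPM of Kcnq3 than of the shorter channel genes.

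Set side by side, 1 of the 4 genes with a ratio in females was at least 2-fold higher in Mut (Kcnc2), as 23.5% of all genes were, and 1 was at least 2-fold lower (Kcna2), as 18.5% were. In males 3 of 5 were at least 2-fold higher (Kcnc1, Kcna1 and Kcnq3), where 16.7% of genes were, and 0 were 2-fold lower, where 17.5% were. In both sexes at once, 0 of the 4 were 2-fold higher and 0 were 2-fold lower, where 5.21% and 3.85% of genes were. The median log2 fold change of the 5 genes was 0.70 and that of all genes tested -0.0004. A sign changed on leaving out 1 cell for 2 of 4 genes in females and for 1 of 5 in males, where 41.4% and 40.5% of all genes changed sign. By the median over genes tested, the highest cell held 42.2% to 46.4% of the sums of the 3 larger groups and more of the WT female sum.

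**Figure D3:**
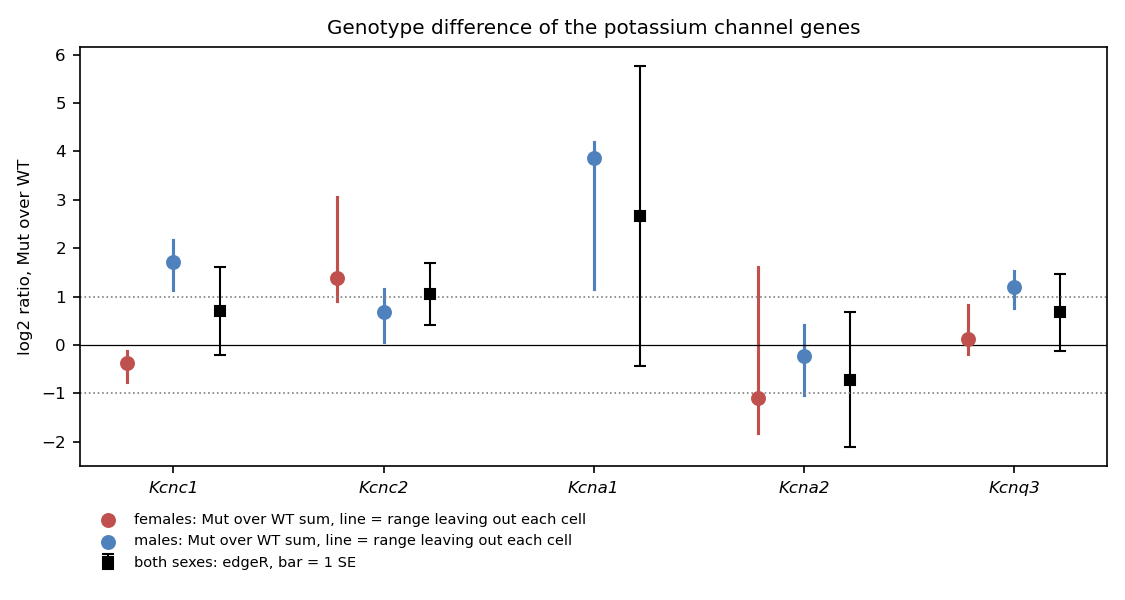
Log2 ratio of Mut over WT for each channel gene within females (red), within males (blue) and over both sexes (black). Coloured lines span the values when each cell is left out in turn, black bars are 1 standard error, and dotted lines mark 2-fold. Kcna1 has no female value. The black bar of every gene but Kcnc2 reaches 0, and the Kcna2 female line runs from -1.82 to 1.61.

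Between the sexes no gene passed edgeR's adjusted threshold (0% in either direction), while 2.33% of genes were higher and 1.55% lower in males at an unadjusted p under 0.05. DESeq2 called 2.73% higher and 1.60% lower in males. Of the channel genes only Kcna1 was among them, with a male over female log2 fold change of 8.48 and a standard error of 3.12 (edgeR, unadjusted p = 0.0457, adjusted p = 1) and DESeq2's adjusted p of 1.1e-05. That difference rests on 2 counts in females and on Mut male cell 7, which held 86.1% of the Kcna1 counts of all cells. The others gave -1.14 for Kcnc1 (standard error 0.91), -0.66 for Kcnc2 (0.63), -0.67 for Kcna2 (1.40) and 0.50 for Kcnq3 (0.80), each with an adjusted p of 1 by edgeR.

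The channel genes were spread over cells with some overlap and no common set. Of 62 cells, 14 carried none of the 5, 19 carried 1, 19 carried 2, 7 carried 3, 3 carried 4 and none carried all 5. Cells without any of them had a median of 3131 genes at 10 CPM or more, against 4284 in cells with at least 1, at median depths of 6324572 and 6353179 counts, and the part of this difference in the absence of the channels was not tested. At least 1 was carried by 7 of the 9 cells of WT females, by 14 of 19 in WT males, by 13 of 19 in Mut females and by 14 of 15 in Mut males.

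Both Kv3 genes were carried together by 15 cells, so Kcnc1 was present in 55.6% of the 27 cells with Kcnc2 and in 31.4% of the 35 without. At least 1 of them was present in 38 cells, 18 of 28 WT and 20 of 34 Mut. All 26 Kcnc1 cells and all 27 Kcnc2 cells carried Lhx6 and Gad1, and the 5 cells without Lhx6 and the 4 without Gad1 carried neither channel. Cells lacking either marker held 1499 to 3887 genes at 10 CPM or more, under the median of 4284 in cells with at least 1 channel gene. The part of this in the missing channels was not tested. Spearman's rho of log2(CPM + 1) over the 62 cells was 0.27 between Kcnc1 and Kcnc2, given as a description because the values share each cell's depth. Kcnq3 showed no such overlap with Kcnc1: it was carried by 11 of the 26 Kcnc1 cells and by 15 of the 36 others. With Kcnc2 the counts were 14 of the 27 Kcnc2 cells and 12 of the 35 others.

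Kcnq3 and Sst were seldom carried by the same cell, a pair singled out after its values were seen. Kcnq3 was carried by 2 of 21 cells with Sst at 10 CPM or more (9.52%) and by 24 of 41 cells below it (58.5%). The median Kcnq3 level was 1.67 CPM in the former and 30.2 CPM in the latter, with rho -0.46 over the 62 cells. The lower share with Sst appeared in every group: 0 of 3 against 3 of 6 in WT females, 1 of 7 against 7 of 12 in WT males, 1 of 7 against 5 of 12 in Mut females and 0 of 4 against 9 of 11 in Mut males. Genes at 10 CPM or more had medians of 4337 with Sst and 3963 without, and the depth had medians of 6080359 and 6568786 counts. Kcnc1 was carried by 10 of the 21 Sst cells and Kcnc2 by 7 of them.

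**Figure D4:**
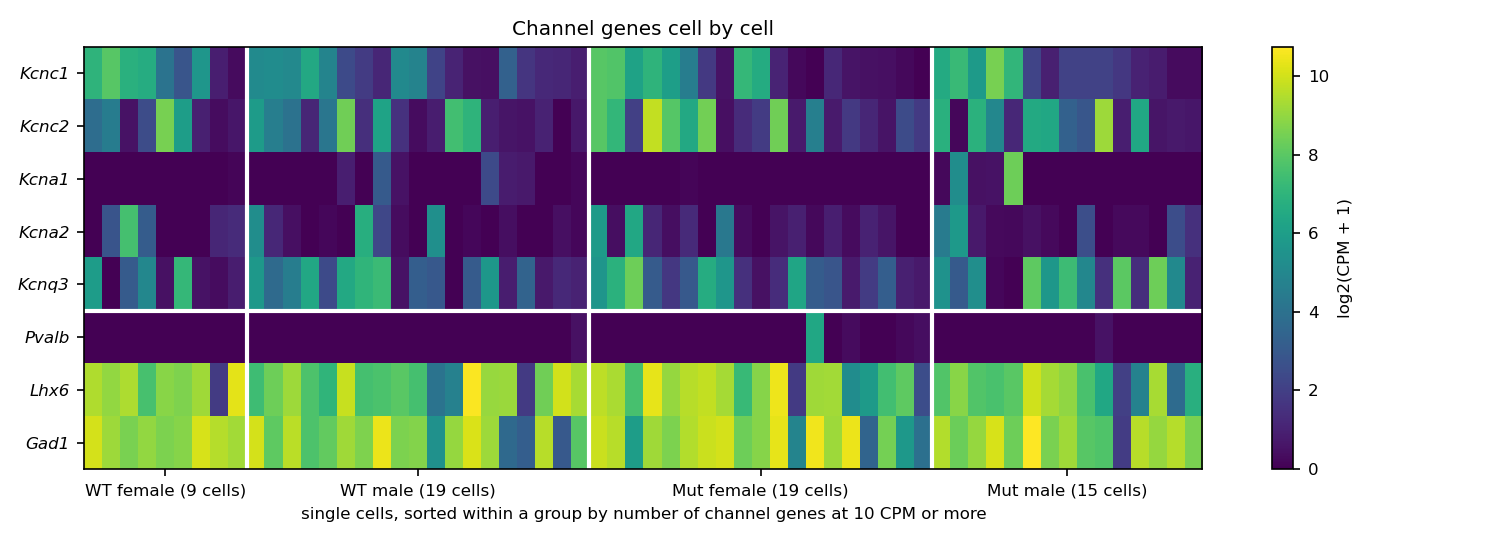
Level of the 5 channel genes, Pvalb, Lhx6 and Gad1 in each of the 62 cells as log2(CPM + 1), 1 column a cell, sorted within each group by the number of channel genes carried. Lhx6 and Gad1 are bright in nearly all cells, the Kv3 genes and Kcnq3 in changing subsets, and Pvalb in 1 Mut female cell.

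The genes whose levels followed each channel most closely over the 62 cells, among those carried by at least 15, were named by Spearman's rho without a test. For Kcnc2 the closest was Maf, a transcription factor of MGE interneurons (0.60), which 24 of the 27 Kcnc2 cells carried, followed by Khsrp and Slc32a1, the vesicular GABA transporter (0.44 each). For Kcnc1 they were Mrpl3 (0.56), Akap11 (0.53) and Cstf2t (0.52), and for Kcnq3 Sin3b (0.58), Ptk2 (0.52) and Brd9 (0.50). Kcna2 came closest to Ap1g1 (0.47), Thra (0.43) and Gclm (0.43). For Kcna1, with 2 carrying cells, the values of Tpi1 (0.45), Sowaha (0.44) and Fam136a (0.44) describe those cells and little else. These names depend on the measure. By Pearson's correlation 2 of the first 3 genes were kept for Kcnc1, Kcnc2 (without Slc32a1) and Kcna2. Only 1 was kept for Kcna1 and for Kcnq3 (Sin3b).

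Among relatives in the Kv7 and Kv3 families, Kcnq5 was carried by 8 cells, Kcnc4 by 1 and Kcnq1, known from heart and inner ear, by none. In the Kv1 list Kcna6 was the most widespread (20 cells, 10.2 TPM), ahead of Kcna3 (11 cells), Kcna2 (9), Kcna4 (2) and Kcna1 (2), while Kcna5, Kcna7 and Kcna10 were carried by none. Kcna6 had sums of 52.5 CPM in WT females, 16.5 in WT males, 16.9 in Mut females and 8.89 in Mut males, with a fold change of -1.26 (standard error 1.02, edgeR unadjusted p = 0.274, adjusted p = 1). DESeq2 called Kcna4 higher in Mut, as it did 2.23% of all genes, a gene carried by 1 Mut female and 1 Mut male cell.

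Several axonal partners of Kv1 channels were carried by more cells than any Kv1 subunit. Adam22, the Lgi1 receptor, was in 57 cells, Epb41l3 in 37, the scaffold Dlg4 in 32, the secreted ligand Lgi1 in 28, Adam23 in 26 and Cntnap2 in 25. The beta subunits Kcnab2, Kcnab1 and Kcnab3 were in 19, 18 and 8. In the Kv2 and silent-subunit list Kcnb2 (Kv2.2) was in 12 cells, Kcnv1 in 7, Kcns2 and Kcns3 in 5 each and Kcng1 in 4. Kcns3, known as a Kv2 modifier of parvalbumin cells, was carried by more cells than Pvalb.

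By direction, edgeR called 0 genes of each list after adjustment, and at an unadjusted p under 0.05 it called Kcna4 and Kcng2 higher in Mut, as it did 1.66% of all genes. Over all genes 25.3% had a positive ratio in each sex, 25.1% a negative one and 49.6% ratios of opposite sign. Of 3 Kv3 genes, 1 had a positive Mut over WT ratio in each sex and 2 had ratios of opposite sign. Of 5 Kv1 genes tested, the ratio was positive in each sex for 1, negative in each for 2 and of opposite sign for 1, and 1 had no female ratio. Of 12 beta and partner genes, it was positive in each sex for 1, negative for 5 and of opposite sign for 6, with median log2 ratios of -0.25 in females and -0.52 in males beside 0.03 and -0.02 over all genes. Of 2 Kv7 genes tested, 1 was positive and 1 negative in each sex, and of 8 Kv2 and silent genes 2 were positive, 0 negative and 6 of opposite sign, with Kcns2 and Kcng2 called higher in Mut by DESeq2, as 2.23% of all genes were. Kcns2 was carried by 5 cells and Kcng2 by 3.

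**Figure D5:**
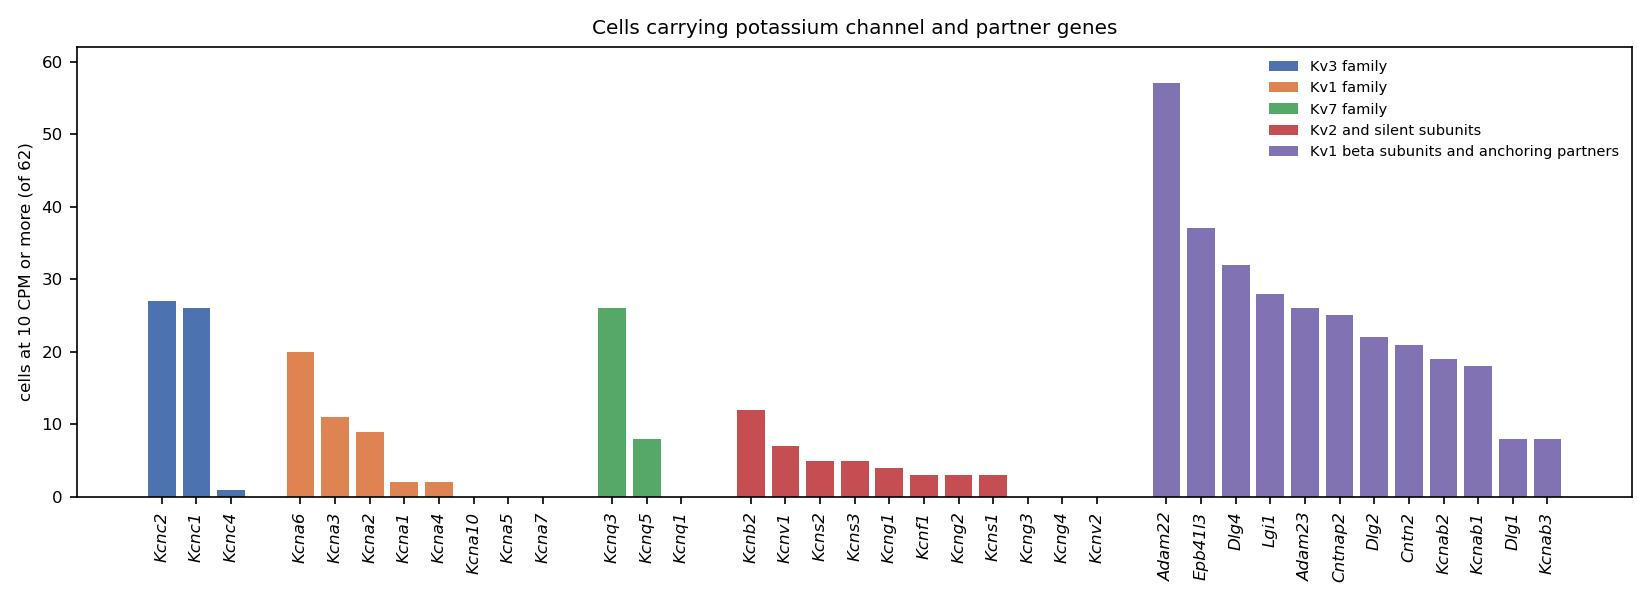
Number of the 62 compared cells at 10 CPM or more of the reported genes in the Kv3, Kv1, Kv7 and Kv2 lists and among the Kv1 beta subunits and partners. Adam22 (57 cells) stands highest, Kcnc2 (27) and Kcnc1 (26) lead the Kv3 genes shown, and Kcna1 is in 2 cells.

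Genes that accompany the fast-spiking phenotype were present in part. Mef2c, a transcription factor, was carried by all 62 cells, the vesicle protein Cplx1 by 53, the sodium channels Scn8a and Scn1a by 41 and 35, the neuregulin receptor Erbb4 by 37 and Tac1, which encodes substance P, by 30. Syt2, the calcium sensor of parvalbumin terminals, was carried by 1 cell, and Scn4b and Acan, the core protein of perineuronal nets, by none. Of 16 genes tested in that list, the ratio was positive in each sex for 4, negative for 1 and of opposite sign for 11, and edgeR called none. Scn1a was carried by 19 of the 26 Kcnc1 cells and by 16 of the 36 others.

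Markers of other cells were measured in the same cells. Summed over 12 pyramidal markers the cells ran from 254 to 1653 CPM in WT females, 353 to 3335 in WT males, 24.3 to 2188 in Mut females and 385 to 2368 in Mut males. Neurod6, a pyramidal transcription factor, was carried by 16 of the 26 Kcnc1 cells and by 15 of the 36 others, and by 13 of the 27 Kcnc2 cells and 18 of the 35 others. Summed over 12 microglial markers the medians were 10.7, 48.9, 13.2 and 17.4 CPM in the same order, with Tmem119 under 10 CPM in all 62 cells. The contamination mark was given to WT cells only, yet the unmarked Mut female cell 20 held 7815 CPM of microglial markers, with 10 of 12 at 10 CPM or more. The next highest were Mut male cell 18 (2412 CPM, 6 of 12), WT male cell 6 (1660 CPM, 8 of 12, with 180 CPM of Kcnc2), WT female cell 6 (1010 CPM, 10 of 12, with 99.7 CPM of Kcnc1) and WT male cell 10 (803 CPM, 8 of 12). Mut female cell 20 carried none of the 5 channel genes, and without it the log2 fold changes over the sexes were 0.74 for Kcnc1, 1.09 for Kcnc2, 2.70 for Kcna1, -0.68 for Kcna2 and 0.71 for Kcnq3. Summed over 11 astrocyte markers the medians were 350 CPM in WT females, 566 in WT males, 413 in Mut females and 197 in Mut males, with the highest cell, Mut female cell 18, at 8455 CPM. Summed over 5 erythroid markers they were 530, 367, 347 and 197 CPM, and the highest cells were Mut female cell 18 (26898 CPM), WT male cell 20 (13445 CPM) and WT male cell 17 (12009 CPM). Of those 3 cells only WT male cell 20 carried a channel gene, Kcnc2 at 127 CPM. Summed over 8 markers of caudal ganglionic eminence interneurons, the median of all compared cells was 382 CPM. The highest was WT male cell 12 at 2224 CPM, which carried no channel gene. Whether any cell descends from that eminence was not tested. Over 8 oligodendrocyte-lineage markers the median was 7.32 CPM. Mut female cell 21 was highest (1916 CPM, 5 of 8, with 96.6 CPM of Kcnc1). Over 6 endothelial markers the median was 37.7 CPM. WT male cell 13 was highest (277 CPM, with 342 CPM of Kcnc2). The part of RNA from these other cells in the channel values was not tested.

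The 5 WT cells marked as contaminated held 3724 to 14206 CPM of microglial markers. Beside medians of 7.61 CPM of Kcnc1 and 1.85 CPM of Kcnc2 in the 28 unmarked WT cells, the marked cells had medians of 10.4 and 0.612 CPM. Kcnc1 ran from 0.262 to 51.3 CPM among them with 3 of 5 carrying, Kcnc2 from 0.330 to 40.0 CPM with 1 carrying, Kcna2 from 0.137 to 17.5 CPM with 1 carrying, and Kcnq3 from 0.526 to 106 CPM with 3 carrying. Kcna1 held 4 counts, all in 1 cell. The levels of all 5 genes lay within the range of the unmarked WT cells. In the 9 removed cells the highest values were 119 CPM of Kcnc1 (Mut male cell 15), 59.9 CPM of Kcnc2 (Mut female cell 9), 26.1 CPM of Kcna2 (WT male cell 2) and 759 CPM of Kcnq3 (Mut female cell 12), above any compared cell for Kcnq3, and Kcna1 had none.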

How the data were processed

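Patch-seq libraries (Nextera XT) of 76 labelled cells were quantified by the authors with kallisto on GRCm38, per the submitters' processing notes; the version and transcript set are not given in the sources used here. The deposited count tables hold estimated counts per gene symbol, before and after the authors' filter, with the same values for shared cells. The deposited normalized table holds TPM. Another 52 and 44 columns of the tables before and after the filter belong to no labelled sample and were not used. The members and lists were chosen with earlier results of these data known.

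Counts of unmarked kept cells were summed by genotype and sex and rounded. Genes passing filterByExpr (minimum count 10) were fitted with edgeR 4.0.16 (quasi-likelihood F-test, TMM, terms sex and genotype, 1 residual degree of freedom, biological coefficient of variation 0.958), and p-values were adjusted by Benjamini-Hochberg over all 16435. Standard errors were computed as the fold change over the root of F. DESeq2 1.42.0 was an alternative. Without named animals, p-values measure only the spread between these 4 sums. Tested on simulated data of the genotype comparison at a coefficient of variation of 0.96, the fit recovered 0% of 4-fold and 0% of 16-fold changes and gave the right sign in 91.4% and 99.0%. At 0.1 it recovered 99.0% of 4-fold changes (16325 genes) and 100% of 16-fold changes (16317 genes). Within a sex no test was made: log2 ratios of TMM-scaled CPM with a pseudocount of 1 are given, none where both sums hold 3 counts or fewer. Cell numbers are in accession order.

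The mean transcript length was added after seeing the data: counts over TPM per gene were scaled in each cell on 104 to 565 genes with 1 transcript in GENCODE M21 (100 or more counts, 1000 nt or longer), less a fragment offset (median 241 nt). Named were the 5 genes, up to 6 genes of each list by cells carrying, the 3 closest genes by Spearman's rho (Gm and Rik names passed over), and the markers set beside a result; Kcnq1, Kcnab1 to Kcnab3, Syt2, Scn4b, Acan and genes called by DESeq2 were named after their values were seen. Some genes of the lists are not reported here, and the list counts leave them out.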

Additional observations from a re-analysis of the deposited data

Results flagged for a closer look

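Among 10 combinations of a channel gene and a group of 4 to 10 cells, a highest cell stood apart from the rest in 6, where chance flags about 1 in 20 groups of normally distributed values. That rate was not tested for levels of 1 gene in single cells, which are skewed, and both Kcna1 cases rest on a gene at 0 in all other cells. In WT females these were Kcnc2 in cell 3 (373 CPM, next 61.8), Kcna2 in cell 5 (191 CPM, next 7.60), Kcnq3 in cell 2 (143 CPM, next 59.5) and Kcna1 in cell 8 (0.116 CPM, a single count, where all others had 0). Among the 4 contaminated WT male cells they were Kcnc2 in cell 3 (40.0 CPM, next 5.81) and Kcna1 in cell 2 (0.659 CPM, the others 0). The Kcnc1 log2 ratio of Mut over WT was negative in females and positive in males, as ratios of opposite sign were for 49.6% of all genes, with a female minus male difference of -2.08 that was not tested.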

How the results depend on the processing

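No paired analysis was possible because replicate numbers were given in accession order and pair no cells. Under 9 alternatives (DESeq2, 2 other scalings, no sex term, no filter, other sets of cells, equal weight per cell) the genotype fold changes kept their direction: Kcnc1 0.32 to 0.83, Kcnc2 0.92 to 1.32, Kcna1 2.59 to 4.99, Kcna2 -1.11 to -0.50 and Kcnq3 0.48 to 1.14, with adjusted p from 0.348 to 1. Leaving out each of 62 cells gave 0.40 to 0.95 for Kcnc1, 0.73 to 1.92 for Kcnc2, 0.78 (without Mut male cell 7) to 4.88 for Kcna1, -1.21 to 0.89 for Kcna2 (reversed without WT female cell 5, where the female ratio, -1.82 to 1.61 over these fits, was highest) and 0.46 to 1.05 for Kcnq3, and no gene of the table passed in any of these fits. By DESeq2, 367 genes passed as higher in Mut and 299 as lower, and 448 as higher in males and 263 as lower, where edgeR called 0 by adjusted p. It moved the sex difference of Kcna1 past the threshold (8.89). The cause was not tested.

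At 1 CPM in place of 10 the carrying cells numbered 45 (Kcnc1), 42 (Kcnc2), 4 (Kcna1), 21 (Kcna2) and 47 (Kcnq3), and at 50 CPM 17 (Kcnc1), 20 (Kcnc2), 1 (Kcna1), 5 (Kcna2) and 17 (Kcnq3). The count of genes 2-fold lower in Mut females fell from 1 to 0 with library totals, with a pseudocount of 5 and with the contaminated cells, and the count 2-fold higher rose to 2 with the removed cells. In males the count 2-fold higher fell from 3 to 2 in cells with Lhx6 and Gad1, where the Kcnq3 ratio was 0.91. Leaving out 1 cell gave 0 to 2 higher and 0 to 1 lower in females, and 2 to 4 higher and 0 to 1 lower in males. With a minimum of 100 counts 9 Kcnc1 cells lay at Kcnc1-203, and with a tolerance of 10% 12 did, beside 11; both were added after seeing the data. Depth limits what a near-zero cell shows: a value under 10 CPM can be a missed transcript.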
